A study of Homo sapiens with 42 samples.

Results

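The CREB3 family of transcription factors was followed by 4 of its genes, CREB3, CREB3L1, CREB3L2 and CREB3L4, which were taken by their symbols from the 28266 gene symbols of a raw count table. RNA with poly(A) tails was sequenced from human lung fibroblasts in 42 libraries that fell into 12 groups. IMR90 ER:RAS cells, which carry an inducible fusion of the oestrogen receptor with oncogenic HRAS, had received DMSO or 100 nM 4-hydroxytamoxifen (4OHT), the ligand that switches RAS on and leads to oncogene-induced senescence (OIS). Plain IMR90 cells had received DMSO or bleomycin, a DNA-damaging drug, at 50 µg/ml for 24 h. Every culture also carried a doxycycline-inducible construct, an shRNA control by its label or 1 of 2 hairpins against COPB2 (shRNA 1 and shRNA 2). The column headers shorten the control to shEV, and the labels do not state whether it expresses a hairpin. COPB2 is a subunit of the coatomer of COPI vesicles. Each culture was kept for 7 days, given doxycycline at 1 µg/ml for 72 h and harvested on day 10, so controls saw the drug too. Each of the 6 ER:RAS groups had 3 libraries and each of the 6 IMR90 groups had 4, all with a genotype given as WT. RAS was driven from an added transgene in all ER:RAS libraries, and cell line and senescence trigger cannot be told apart because each trigger was used in 1 line.

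The CREB3 proteins are bZIP transcription factors that sit in the membrane of the endoplasmic reticulum (ER) until they travel to the Golgi, where the site-1 and site-2 proteases cut them and free the part that enters the nucleus. Their activity is therefore set largely after translation, and an mRNA level measures supply rather than activity. In secretory cells CREB3L1 and CREB3L2 are known for driving collagen and COPII coat genes, CREB3 for responding to Golgi stress, and CREB3L4, which is best known from prostate and testis, for a role in secretory and germ cells.

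The 4 genes lie on 4 chromosomes. On RefSeq GRCh38.p14, CREB3 is on chromosome 9 from 35732666 to 35736999 on the plus strand, and CREB3L1 on chromosome 11 from 46277662 to 46321409 on the plus strand. CREB3L2 is on chromosome 7 from 137874979 to 138002086 on the minus strand, and CREB3L4 on chromosome 1 from 153967487 to 153974359 on the plus strand. Exons of CREB3 overlap those of GBA2, and exons of CREB3L4 overlap those of SLC39A1 and JTB, in each case on the opposite strand. The libraries were directional according to the study's methods, but the strand setting of the counting was not given in the sources used here, so reads of such pairs may be shared.

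Promoter bases of 3 of the genes are shown, from the same RefSeq build, because CREB3 and CREB3L4 were the members that moved in opposite directions with bleomycin, CREB3L2 carried the one full cAMP response element found, and the CREB3L4 stretch is shared with a neighbour. Capitals mark a match to a searched motif. The CREB3 stretch is the 250 bases before the start, chr9:35732416-35732665 on the plus strand, with ACGTGGC 166 bases before the start. The CREB3L2 stretch is the 250 bases before the start, chr7:138002087-138002336 on the minus strand, with TGACGTCA 179 bases before the start. The CREB3L4 stretch is the 65 bases between the CREB3L4 start of the promoter table, at 153968250, and an SLC39A1 start at 153968184, chr1:153968185-153968249 on the plus strand, with no match. That CREB3L4 start lies inside the gene span given above, which begins further upstream. The CREB3L1 start of the promoter table, at 46295159, also lies inside its gene span, which begins upstream at 46277662.
CREB3: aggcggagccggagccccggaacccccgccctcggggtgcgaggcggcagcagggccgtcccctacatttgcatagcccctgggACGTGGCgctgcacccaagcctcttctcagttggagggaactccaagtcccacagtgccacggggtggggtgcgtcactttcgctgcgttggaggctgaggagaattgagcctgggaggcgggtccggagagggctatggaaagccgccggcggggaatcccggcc
CREB3L2: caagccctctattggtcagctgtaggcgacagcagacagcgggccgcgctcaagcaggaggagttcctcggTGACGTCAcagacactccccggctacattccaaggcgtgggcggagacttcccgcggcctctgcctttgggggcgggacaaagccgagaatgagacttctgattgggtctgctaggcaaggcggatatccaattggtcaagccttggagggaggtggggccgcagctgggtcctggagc
CREB3L4: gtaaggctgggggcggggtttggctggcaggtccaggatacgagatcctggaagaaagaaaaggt

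In 35116 promoter windows of 250 bases, searched on both strands, 1.65% held the cAMP response element TGACGTCA, as did 1 of the 5 windows of these genes, of which CREB3L2 has 2. The Golgi stress element ACGTGGC was in 2.78% of all windows and in 1 of the 5. The unfolded protein response core TGACGTGG, in 0.612% of all windows, and the ER stress element (ERSE), in 0.074%, were in none of the 5. TGACGTGG and ACGTGGC share the letters ACGTGG and can overlap. At the pair of starts named, CREB3L4 and SLC39A1, a zinc transporter gene, begin 66 bases apart and are read away from each other, whereas the full CREB3L4 span reaches over that SLC39A1 start.

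Library totals ran from 13148194 to 23597310 counts, and levels are given as CPM, reads per 1000000 counts after scaling. A floor of 3 counts is 0.228 CPM at the lowest total and 0.127 at the highest. COPB2 was at 267 to 620.2 CPM where the control shRNA was used (14 libraries) and at 33.9 to 122 where a COPB2 shRNA was used (28), and HRAS was at 2573 to 6783 CPM in ER:RAS libraries against 23.04 to 175 in IMR90. All 9 fibroblast markers were above 3 counts in every library, with a summed level of 8158 to 27790 CPM. Epithelial markers summed to at most 1.87 CPM over 4 genes, blood markers to 2.45 over 4 and endothelial markers to 13.7 over 3, of which VWF gave up to 10.2. Libraries of 1 group differed in how AT-rich and GC-rich genes were represented. A GC index, the mean log2 deviation of the 2978 genes with the lowest GC content (up to 40.5%) minus that of the 2979 with the highest (from 57.9%), ran from -1.82 to 1.04. With the control shRNA its group means were -0.40 in ER:RAS DMSO and -0.51 in OIS, and 0.28 in IMR90 DMSO and 0.32 with bleomycin. With shRNA 1 they were -0.52 and -0.36, and 0.28 and 0.55, and with shRNA 2 they lay further apart in ER:RAS cells, at -0.74 and -0.32, and at 0.47 and 0.23 in IMR90.

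All 4 genes were detected in every library, and their levels are best compared per kilobase of exon. On that scale CREB3 was the most abundant member in each of the 12 groups, followed by CREB3L1, CREB3L2 and CREB3L4. The libraries spanned 46.3 to 218 CPM per kb for CREB3, 17.4 to 81.1 for CREB3L1, 4.94 to 14.6 for CREB3L2 and 0.878 to 5.14 for CREB3L4. CREB3 was the highest in 42 of 42 libraries and CREB3L4 the lowest in 42. When the longest annotated transcript was used in place of all exons, CREB3 was the highest in 35 libraries and CREB3L1 in the other 7, and CREB3L4 was the lowest in 40. The exon lengths were 1.64, 4.02, 8.81 and 2.90 kb, and the order of the first pair depends on the length used.

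Between groups, CREB3 varied 2.75-fold in its mean CPM, CREB3L1 2.59-fold, CREB3L2 2.06-fold and CREB3L4 3.50-fold. When the 12 groups were put in order of their mean CPM, the library ranges of neighbouring groups overlapped in 11 of 11 pairs for CREB3, CREB3L1 and CREB3L2, and in 10 of 11 for CREB3L4. The highest group means were seen for CREB3 in OIS with shRNA 2, for CREB3L1 and CREB3L4 in ER:RAS DMSO with shRNA 2, and for CREB3L2 in bleomycin with shRNA 1. The lowest were seen for CREB3 in IMR90 DMSO with shRNA 1, for CREB3L1 and CREB3L4 in OIS with shRNA 1, and for CREB3L2 in OIS with shRNA 2. The order is thus a graded one, and the exception is the step in CREB3L4 between the DMSO groups and the senescent groups.

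**Figure D1:**
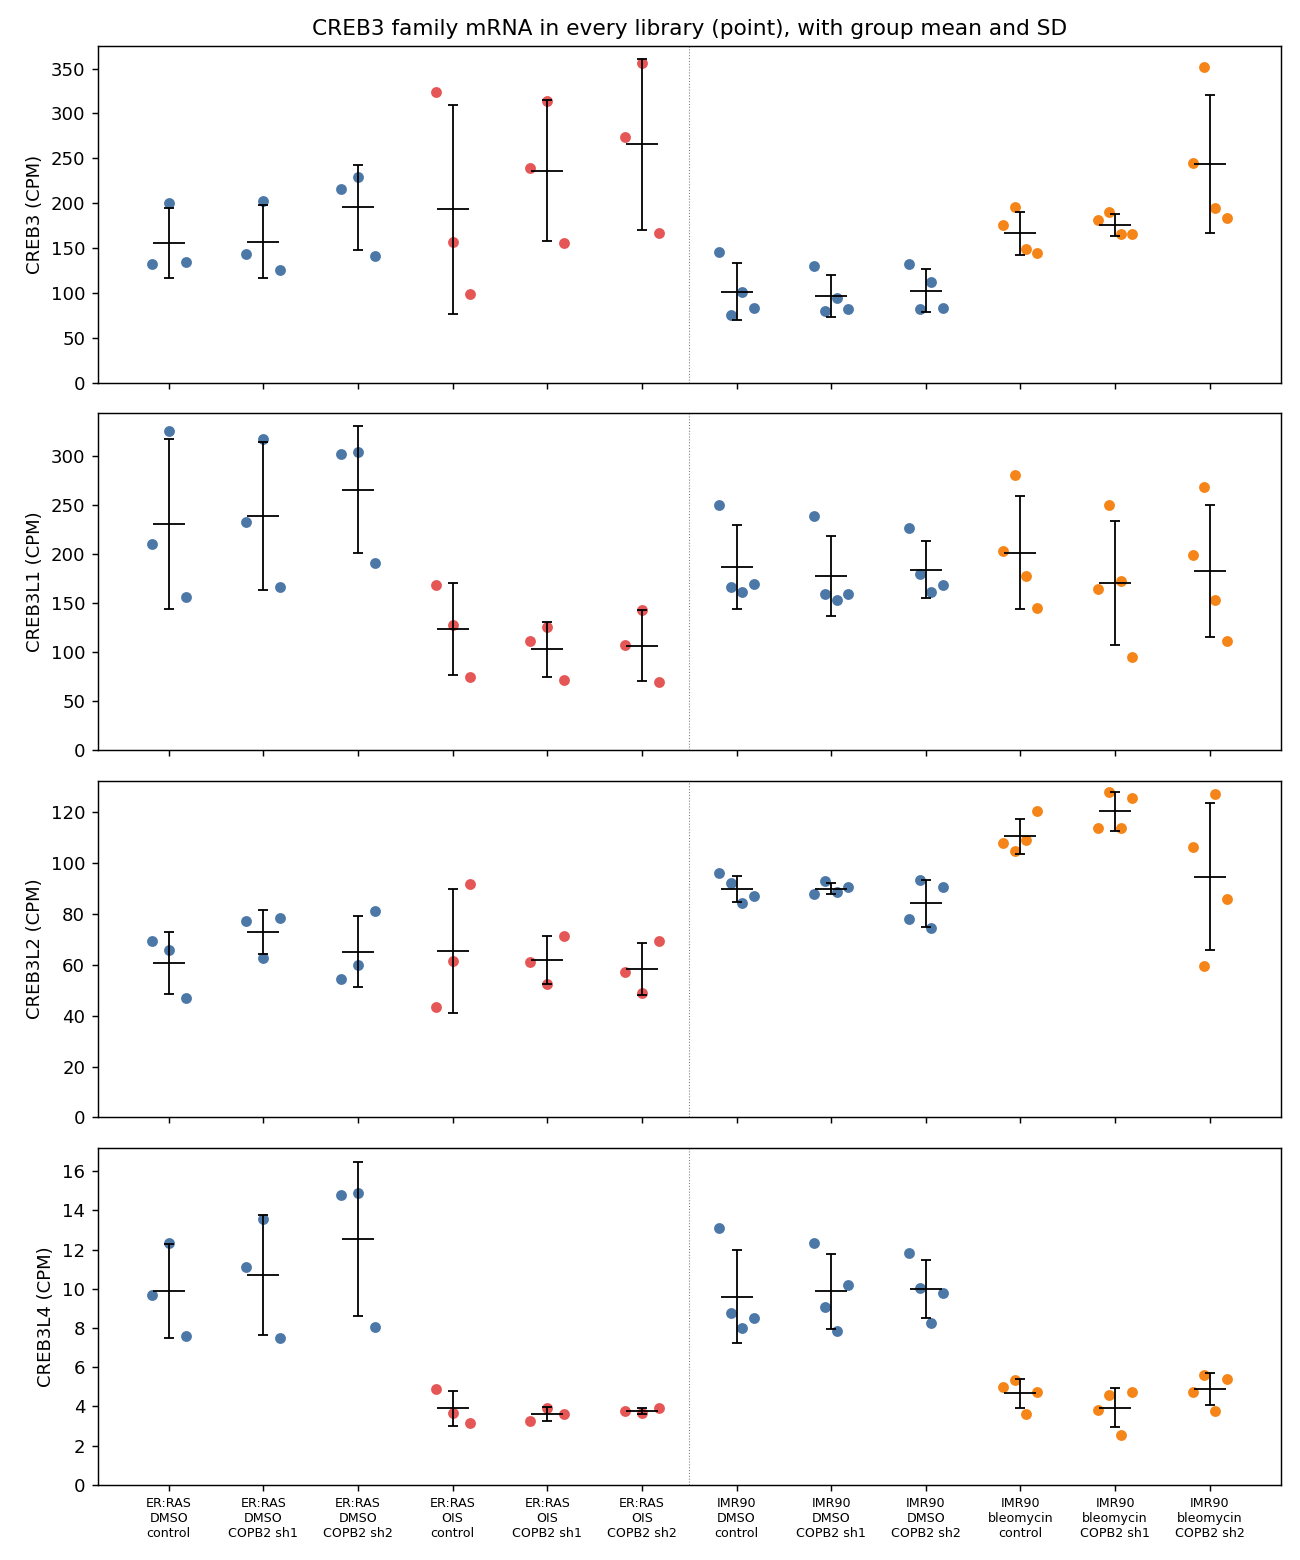
Each point is the CPM of 1 library, with bars for the group mean and SD, for CREB3, CREB3L1, CREB3L2 and CREB3L4 from top to bottom, in 6 ER:RAS groups (3 libraries each) and 6 IMR90 groups (4 each). Blue marks DMSO, red OIS and orange bleomycin; CREB3L4 lies between 7.47 and 14.9 CPM in DMSO libraries and between 2.55 and 5.58 CPM in senescent ones.

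CREB3, the member tied to Golgi stress, did not pass the test between DMSO and OIS in ER:RAS cells. In IMR90 cells it rose with bleomycin under each of the 3 shRNAs, from 1.62-fold with the control shRNA to 2.31-fold with shRNA 2. In ER:RAS DMSO the libraries held 132, 200.5 and 134 CPM with the control shRNA, 143, 203 and 126 with shRNA 1, and 216, 229.6 and 141 with shRNA 2. In OIS they held 323, 157 and 98.7 CPM with the control shRNA, 239, 314 and 156 with shRNA 1, and 274, 356 and 167 with shRNA 2. The OIS groups spread widely, and under each shRNA their lowest library was below the highest DMSO library. The mean with the control shRNA was 193 ± 117 CPM (SD, n = 3) in OIS and 156 ± 38.97 in DMSO, which is 0.20 on the log2 scale (adjusted p = 0.724 by the edgeR quasi-likelihood test, SE 0.36). The log2 fold change was 0.50 (adjusted p = 0.31, SE 0.36, edgeR) with shRNA 1 and 0.36 (adjusted p = 0.482, SE 0.36, edgeR) with shRNA 2. With the control shRNA its interval ran from -0.57 to 0.97, which leaves room for a change in either direction. In bulk libraries, fewer cells with a transcript and less of it in each cell cannot be told apart.

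In IMR90 DMSO the libraries held 146, 75.7, 101 and 82.8 CPM of CREB3 with the control shRNA, 131, 79.6, 94.4 and 82.2 with shRNA 1, and 132, 82.3, 112 and 83.7 with shRNA 2. After bleomycin they held 176, 196, 149 and 145 CPM with the control shRNA, 182, 190.2, 165 and 165 with shRNA 1, and 245, 352, 194 and 184 with shRNA 2. Under both COPB2 shRNAs all bleomycin libraries were above all DMSO libraries, and under the control shRNA the highest DMSO library, at 146.2 CPM, exceeded only the lowest bleomycin library, at 145.1. The log2 fold change was 0.69 (adjusted p = 0.0196, SE 0.22, edgeR) with the control shRNA, 0.83 (adjusted p = 0.0053, SE 0.22) with shRNA 1 and 1.21 (adjusted p = 0.000196, SE 0.22) with shRNA 2. The call with the control shRNA depended on single libraries. Without DMSO replicate 2 the log2 fold change of CREB3 was 0.61 (adjusted p = 0.0707, edgeR), without DMSO replicate 4 it was 0.61 (adjusted p = 0.0676), and without bleomycin replicate 2 it was 0.61 (adjusted p = 0.0608). In all 42 libraries fitted together it was 0.72 (adjusted p = 0.0661). GBA2, which encodes a glucosylceramidase and overlaps CREB3 on the other strand, was not called with bleomycin, with log2 fold changes of -0.05, 0.10 and 0.06 under the 3 shRNAs.

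CREB3L1, which is known as an activator of collagen genes, fell in OIS and did not pass the test in bleomycin-treated cells. In ER:RAS DMSO it stood at 210.4, 326 and 156 CPM with the control shRNA, 233, 318 and 167 with shRNA 1, and 302, 305 and 191 with shRNA 2. In OIS it stood at 168, 128 and 74.6 CPM with the control shRNA, 112, 126 and 71.1 with shRNA 1, and 107, 143 and 69.8 with shRNA 2. Under both COPB2 shRNAs no OIS library reached the lowest DMSO library, and under the control shRNA 1 OIS library, replicate 1 at 168 CPM, exceeded the lowest DMSO library at 156. The mean with the control shRNA went from 231 ± 86.8 to 124 ± 47.0 CPM (SD, n = 3), and the log2 fold change was -1.0 (adjusted p = 0.0274, SE 0.33, edgeR). The log2 fold change was -1.30 (adjusted p = 0.00598, SE 0.33, edgeR) with shRNA 1 and -1.40 (adjusted p = 0.00368, SE 0.33) with shRNA 2.

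The call of CREB3L1 with the control shRNA was fragile. It was lost without DMSO replicate 1 (log2 fold change -1.01, adjusted p = 0.0745, edgeR), DMSO replicate 2 (-0.65, adjusted p = 0.196), OIS replicate 2 (-0.97, adjusted p = 0.0974) and OIS replicate 3 (-0.70, adjusted p = 0.156). It was also lost under DESeq2 (log2 fold change -0.88, adjusted p = 0.068), under DESeq2 size factors in edgeR (-0.88, adjusted p = 0.0863), with no filter on low counts (-0.95, adjusted p = 0.0541) and when only the 2 groups were fitted (-0.99, adjusted p = 0.121). The call was kept with a term for the replicate number (a replicate block) and in the fit of all 42 libraries. Within each replicate number the OIS library with the control shRNA was below the DMSO library. With shRNA 1 the call of CREB3L1 was lost without DMSO replicate 2 (-0.99, adjusted p = 0.0532, edgeR) and without OIS replicate 3 (-1.06, adjusted p = 0.0516), and with shRNA 2 it was kept without each library in turn. When each library was corrected for the GC content and length of its genes, an analysis added once the data had been seen, CREB3L1 stood at -0.89 with the control shRNA (adjusted p = 2.83e-05, SE 0.13, edgeR).

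In IMR90 cells CREB3L1 stood at 251, 166, 161 and 169.6 CPM in DMSO with the control shRNA and at 204, 281, 178 and 145 after bleomycin. With shRNA 1 it stood at 239, 159.8, 153 and 159 CPM in DMSO and at 165, 250.3, 172 and 94.8 after bleomycin, and with shRNA 2 at 227, 179, 162 and 168 in DMSO and at 199, 269, 153 and 111 after bleomycin. The ranges overlapped under each shRNA, with bleomycin libraries on both sides of the DMSO libraries in each case. The log2 fold changes were 0.08 (adjusted p = 0.857, SE 0.27, edgeR), -0.09 (adjusted p = 0.831, SE 0.27) and -0.05 (adjusted p = 0.897, SE 0.27) with the control shRNA, shRNA 1 and shRNA 2. With the control shRNA the interval of that log2 fold change started at -0.48.

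CREB3L2, the closest relative of CREB3L1 and a driver of COPII coat genes in cartilage, passed the edgeR test in no comparison, though with bleomycin and shRNA 1 it passed under other settings. With the control shRNA it was measured at 69.4, 66.1 and 46.9 CPM in ER:RAS DMSO and at 43.5, 61.5 and 91.8 in OIS, which surround the DMSO values on both sides. In IMR90 cells it was measured at 96.1, 92.2, 84.2 and 87.2 CPM in DMSO and at 108, 105, 109 and 121 after bleomycin, where all bleomycin libraries were higher. The log2 fold change was 0.04 (adjusted p = 0.947, SE 0.29, edgeR) in OIS and 0.27 (adjusted p = 0.224, SE 0.16) with bleomycin.

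Under shRNA 1 the IMR90 libraries of CREB3L2 held 88.0, 92.9, 88.8 and 90.6 CPM in DMSO and 114, 128, 114 and 126 after bleomycin, again without overlap. The log2 fold change was 0.38 (adjusted p = 0.0663, SE 0.16, edgeR), and it passed the threshold under DESeq2 (0.41, adjusted p = 0.03), under DESeq2 size factors (0.41, adjusted p = 0.0412), when only the 2 groups were fitted (0.41, adjusted p = 0.0185) and with the GC correction (0.32, adjusted p = 0.023). Under shRNA 2 they held 78.1, 93.4, 74.5 and 90.8 CPM in DMSO and 107, 59.5, 127 and 85.8 after bleomycin. The lowest of these, bleomycin replicate 2, was also the library of that group with the most CREB3, and without it the log2 fold change of CREB3L2 went from 0.13 (adjusted p = 0.532, SE 0.16, edgeR) to 0.32 (adjusted p = 0.048). In ER:RAS cells the groups with COPB2 shRNAs ran from 54.6 to 81.1 CPM in DMSO and from 48.8 to 71.5 in OIS, and the log2 fold changes were -0.31 (adjusted p = 0.452, SE 0.30) and -0.23 (adjusted p = 0.591, SE 0.30) for shRNA 1 and 2.

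CREB3L4, the least abundant member, fell in both senescence models and under each of the 3 shRNAs. In ER:RAS DMSO it was counted at 9.68, 12.4 and 7.60 CPM with the control shRNA, 11.1, 13.5 and 7.47 with shRNA 1, and 14.8, 14.9 and 8.03 with shRNA 2. In OIS it was counted at 4.87, 3.63 and 3.17 CPM with the control shRNA, 3.23, 3.93 and 3.61 with shRNA 1, and 3.74, 3.64 and 3.91 with shRNA 2. Every OIS library was below every DMSO library, and the OIS values were also closer to each other. In IMR90 DMSO it was counted at 13.1, 8.76, 8.02 and 8.53 CPM with the control shRNA, 12.4, 9.06, 7.84 and 10.2 with shRNA 1, and 11.8, 10.0, 8.25 and 9.78 with shRNA 2. After bleomycin it was counted at 4.98, 5.33, 3.62 and 4.72 CPM with the control shRNA, 3.83, 4.56, 2.55 and 4.74 with shRNA 1, and 4.75, 5.58, 3.76 and 5.42 with shRNA 2. Here too no bleomycin library reached the lowest DMSO library. Over both lines the 21 DMSO libraries held 156 to 248 reads of CREB3L4 and the 21 senescent libraries 46 to 114.

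The fall of CREB3L4 in OIS was from 9.88 ± 2.38 to 3.89 ± 0.88 CPM (SD, n = 3) with the control shRNA, a log2 fold change of -1.44 (adjusted p = 0.000733, SE 0.28, edgeR). It was -1.64 (adjusted p = 0.000238, SE 0.28) with shRNA 1 and -1.79 (adjusted p = 0.000111, SE 0.28) with shRNA 2. With bleomycin the level fell from 9.60 ± 2.35 to 4.66 ± 0.74 CPM (SD, n = 4) with the control shRNA, a log2 fold change of -1.06 (adjusted p = 0.000749, SE 0.22, edgeR). It was -1.36 (adjusted p = 5.72e-05, SE 0.22) with shRNA 1 and -1.07 (adjusted p = 0.000565, SE 0.22) with shRNA 2. The call of CREB3L4 was kept in all 6 comparisons without each library in turn. SLC39A1, whose exons overlap those of CREB3L4, fell in OIS (log2 fold change -0.91, adjusted p = 0.0183, SE 0.28, edgeR, with the control shRNA), as did JTB, a membrane protein gene (-0.82, adjusted p = 0.0183, SE 0.25). With bleomycin and the control shRNA SLC39A1 stood at a log2 fold change of -0.01 (adjusted p = 0.968, SE 0.18) and JTB at -0.21 (adjusted p = 0.51, SE 0.21). The part of reads from these neighbours in the counts of CREB3L4 was not tested.

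Read against all genes, such calls were common. With the control shRNA 2 of the 4 members were called in OIS, both lower, where 35.7% of the 14297 genes tested were called. With bleomycin 2 of the 4 were called, CREB3 higher and CREB3L4 lower, where 31.2% of 14783 genes were called. The members called were the same pairs under the COPB2 shRNAs, where 36.9% of genes were called in OIS with shRNA 1 and 36.9% with shRNA 2, and 35.2% and 40% with bleomycin. Groups that do not overlap were as common, at 38.5%, 46.5% and 46.2% of genes in OIS and 28%, 35.4% and 30.8% with bleomycin for the control shRNA, shRNA 1 and shRNA 2. Members without overlap numbered 1, 2 and 2 in OIS and 2, 3 and 2 with bleomycin, in the same order.

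**Figure D2:**
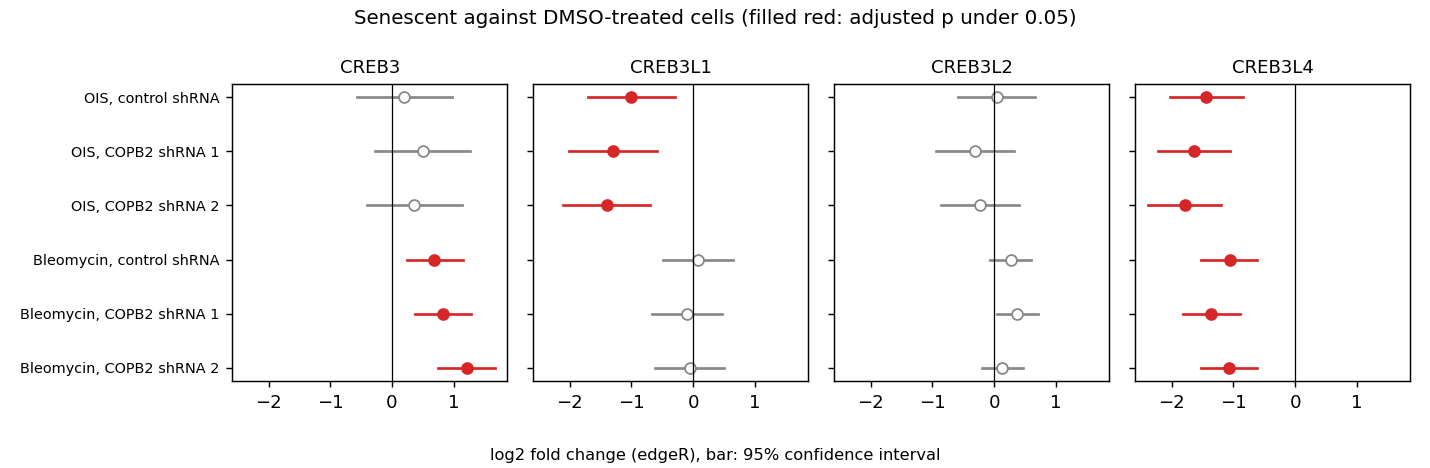
Log2 fold change of senescent against DMSO-treated cells for each member (panels), by trigger and shRNA, with 95% confidence intervals from edgeR; filled red points have an adjusted p under 0.05. CREB3L4 is lower in all 6 comparisons, from -1.06 to -1.79, CREB3L1 in the 3 OIS comparisons, and CREB3 is higher in the 3 bleomycin comparisons.

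Because the members moved unequally, the make-up of the family mRNA differed between states. Of the summed CPM per kb, CREB3 took 55.3 to 63.7% in the 9 ER:RAS DMSO libraries and 66.8 to 83.8% in the 9 OIS libraries. CREB3 took 45.8 to 57.1% in the 12 IMR90 DMSO libraries and 59.0 to 74.1% in the 12 bleomycin libraries. CREB3L1 took 30.1 to 37.6% in ER:RAS DMSO against 13.2 to 23.3% in OIS. These shares did not overlap between DMSO and senescent libraries of a line, unlike the CPM of CREB3 itself in ER:RAS cells. In IMR90 cells the share of CREB3L1 overlapped, at 33.5 to 40.9% in DMSO and 16.8 to 34.3% after bleomycin. CREB3L4 took 1.90 to 3.39% over all DMSO libraries and 0.482 to 1.23% over all senescent ones. A share can rise because another member falls, and these ranges were not tested.

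**Figure D3:**
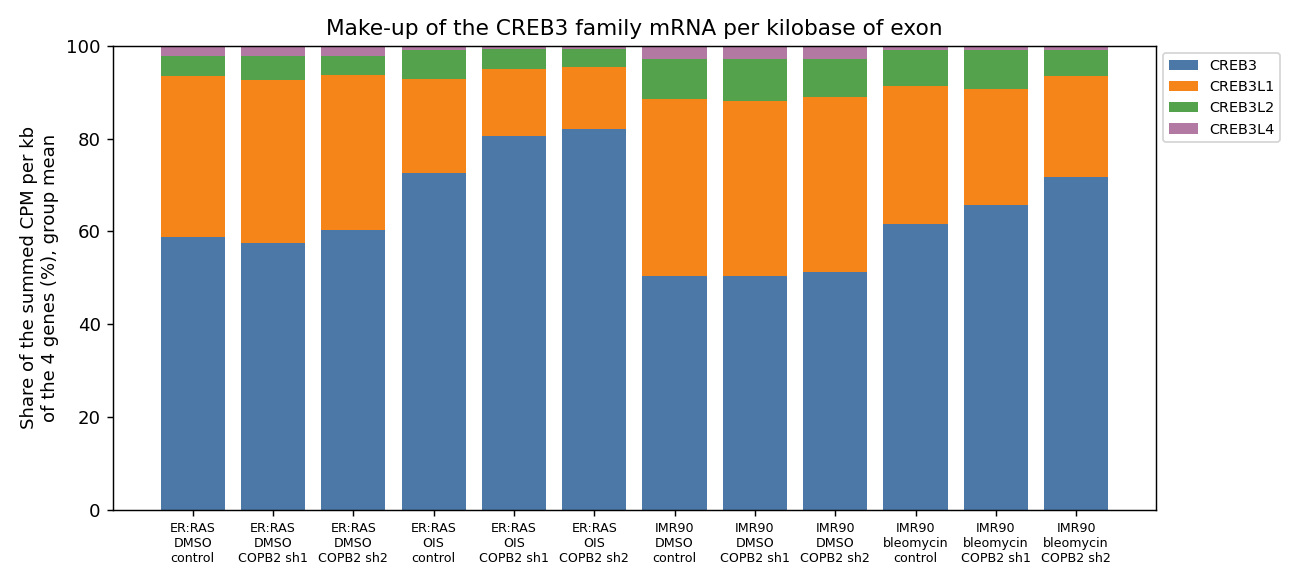
Bars stack the mean share (%) of each member in the summed CPM per kb of the 4 genes for the 12 groups. The CREB3 share goes from 58.9% in ER:RAS DMSO to 72.6% in OIS and from 50.3% in IMR90 DMSO to 61.5% after bleomycin, with the control shRNA.

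Whether both senescence models moved the family alike was tested as the OIS response minus the bleomycin response with the control shRNA, in 1 fit of all 42 libraries. None of the 4 members passed, where 20.3% of 15299 genes did, and 1 had an unadjusted p under 0.05. This was CREB3L1, with a difference of log2 fold changes of -1.01 (adjusted p = 0.128, SE 0.46, edgeR). The difference for CREB3 was -0.41 (adjusted p = 0.601, SE 0.44), for CREB3L2 -0.19 (adjusted p = 0.736, SE 0.29) and for CREB3L4 -0.31 (adjusted p = 0.618, SE 0.35). DESeq2 also called 0 members. With the GC correction the difference passed for CREB3L1 (-1.01, adjusted p = 0.00123, edgeR) and CREB3 (-0.64, adjusted p = 0.0167). Whether the responses of CREB3L1 to the 2 triggers differ thus depended on the fit.

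DMSO-treated ER:RAS and IMR90 cells were compared in the same fit. None of the 4 members was called with the control shRNA, by edgeR or by DESeq2, where 0.346% of genes were called, and CREB3L2 had an unadjusted p under 0.05. It was lower in ER:RAS cells, with 46.9 to 69.4 CPM against 84.2 to 96.1 in IMR90 and a log2 fold change of -0.57 (adjusted p = 0.283, SE 0.20, edgeR). Its libraries did not overlap, as held for 12.7% of genes. CREB3 stood at 0.62 (adjusted p = 0.439, SE 0.31), CREB3L1 at 0.30 (adjusted p = 0.641, SE 0.33) and CREB3L4 at 0.04 (adjusted p = 0.944, SE 0.24) on the log2 scale.

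COPB2 knockdown, the question the study was built around, was not accompanied by a called change in any member. Each COPB2 shRNA was set against the control shRNA in the 4 cell states, and 0 of 4 members passed in each of these 8 comparisons by edgeR and by DESeq2. Called genes were rare in general, at 0.00699% for either shRNA in ER:RAS DMSO, 0.14% and 0.224% for shRNA 1 and 2 in OIS, 0.00676% for either in IMR90 DMSO, and 0.00676% and 0.0744% in bleomycin. The mean of both shRNAs gave 0 members as well, with 0.014%, 0.266%, 0.00676% and 0.0474% of genes called in the same order of states. The nearest was CREB3 in bleomycin with shRNA 2, where the 4 libraries at 184 to 352 CPM overlapped the control libraries at 145 to 196 in 2 of 4 cases. Its log2 fold change was 0.55 (adjusted p = 0.701, SE 0.22, edgeR), the one member and comparison of these 8 with an unadjusted p under 0.05.

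In OIS the log2 fold change of CREB3 was 0.29 (adjusted p = 1, SE 0.36, edgeR) with shRNA 1 and 0.45 (adjusted p = 1, SE 0.36) with shRNA 2, and the intervals ended at -0.48 and -0.32 on the lower side. CREB3L1 stood at -0.27 (SE 0.33) and -0.23 (SE 0.33), CREB3L2 at -0.11 (SE 0.29) and -0.19 (SE 0.30), and CREB3L4 at -0.11 (SE 0.28) and -0.05 (SE 0.28) on the log2 scale, all with adjusted p = 1 by edgeR. Whether a knockdown effect differed between the senescent and the DMSO state was tested in both lines, and 0 of 4 members and 0.0% of genes were called. At an unadjusted p under 0.05 these tests held 194 and 263 genes in ER:RAS and 121 and 285 in IMR90 for shRNA 1 and 2. Each count is below a share of 0.05 of the 14297 and 14783 genes tested, the share expected with no effect in any gene. The knockdown comparisons in DMSO were below it too, with 116 and 133 genes in ER:RAS and 165 and 166 in IMR90. Bleomycin with shRNA 2 was above it, with 997 genes. Where the counts are this low, the absence of a call is weak evidence of no change.

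**Figure D4:**
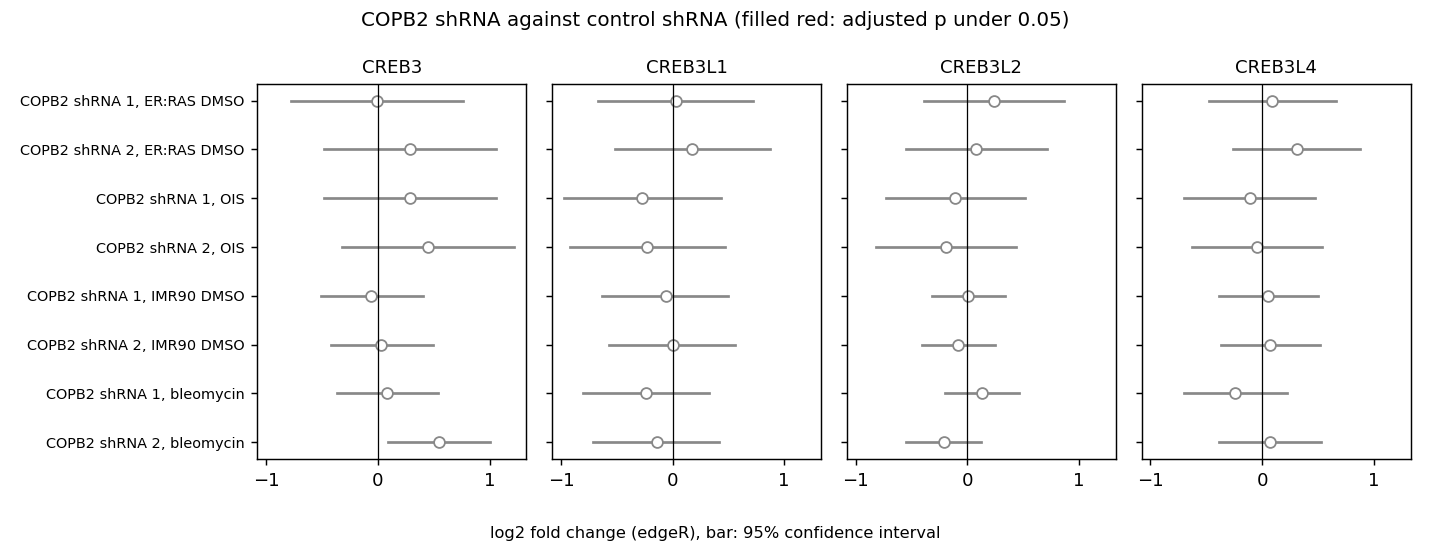
Log2 fold change of each COPB2 shRNA against the control shRNA for each member (panels) in 4 cell states, with 95% confidence intervals from edgeR. No point passes an adjusted p of 0.05, and the interval that leaves 0 is that of CREB3 with shRNA 2 in bleomycin, from 0.09 upwards.

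The genes that handle the CREB3 proteins were followed as a list of 7, of which 6 passed the filter on low counts and TM4SF20 did not. With the control shRNA 0 rose and 1 fell in OIS (16.7%, against 35.7% of all genes), with a median log2 fold change of -0.53 against -0.08 over all genes, and 0 of 6 were called with bleomycin, with a median of -0.16 against -0.01. The one called was MBTPS1, the site-1 protease that makes the first cut, at a log2 fold change of -0.43 (adjusted p = 0.0416, SE 0.16, edgeR). MBTPS1 was lower in OIS also with shRNA 1 (-0.60, adjusted p = 0.0062, SE 0.16) and shRNA 2 (-0.53, adjusted p = 0.0133, SE 0.16), and went from 306 ± 55.7 CPM in ER:RAS DMSO to 242 ± 21.9 in OIS with the control shRNA. With bleomycin it stood at -0.20 (adjusted p = 0.152, SE 0.10) with the control shRNA and was called with shRNA 1 (-0.28, adjusted p = 0.0442, SE 0.10). SYVN1, an ER ubiquitin ligase that marks uncut CREB3L1 and CREB3L2 proteins for degradation, rose with bleomycin under shRNA 1 (0.60, adjusted p = 0.026, SE 0.21) and shRNA 2 (0.73, adjusted p = 0.00744, SE 0.21). MBTPS2, the site-2 protease, stood at log2 fold changes of -0.12 (SE 0.55) in OIS and 0.18 (SE 0.25) with bleomycin, and HCFC1, a nuclear cofactor that binds CREB3, at -0.63 (SE 0.28) and -0.11 (SE 0.21). CREBRF, which speeds loss of the CREB3 protein, stood at -1.22 (SE 1.21) and -0.28 (SE 0.52), and its error was too large to show a change of that size.

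Genes known as targets of the family moved in both directions with bleomycin. With the control shRNA those called in OIS fell, whereas with the COPB2 shRNAs they moved in both directions. Of 8, none rose and 2 fell in OIS with the control shRNA (25%, against 35.7% of all genes), both collagen I chains, COL1A2 (log2 fold change -3.26, adjusted p = 7.06e-08, SE 0.24, edgeR) and COL1A1 (-1.20, adjusted p = 0.00073, SE 0.23). With bleomycin 2 rose and 2 fell (50%, against 31.2%), namely EDEM1, which takes part in ER-associated degradation (0.57, adjusted p = 0.0373, SE 0.20), ARF4, a small GTPase of the Golgi (0.49, adjusted p = 0.0222, SE 0.16), COL1A1 (-1.0, adjusted p = 0.026, SE 0.34) and COL1A2 (-0.65, adjusted p = 0.0498, SE 0.25). The median log2 fold change was 0.04 in OIS and -0.08 with bleomycin, against -0.08 and -0.01 over all genes. In OIS against DMSO with either COPB2 shRNA, 4 of 8 rose and 2 fell (75%, against 36.9% of all genes). The medians there were 0.83 with shRNA 1 and 0.87 with shRNA 2, against -0.12 and -0.09 over all genes. The values that follow are again with the control shRNA. HERPUD1, an ER stress gene that CREB3 can activate, stood at 0.12 (SE 0.21) in OIS and -0.06 (SE 0.15) with bleomycin, SEC23A at 0.50 (SE 0.60) in OIS and SEC24D at -0.03 (SE 0.32), the last pair being COPII coat subunits.

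The wider lists held genes called in both directions, and their shares are read against 35.7% of all genes called in OIS and 31.2% with bleomycin, with the control shRNA. Of 16 COPII coat genes, 2 rose and 1 fell in OIS (18.8%) and 2 rose with bleomycin (12.5%), with SEC23B higher in both (log2 fold change 1.04, adjusted p = 6.4e-05, SE 0.15, and 0.96, adjusted p = 2.13e-06, SE 0.12, edgeR). Of 24 collagen and collagen-processing genes, 4 rose and 8 fell in OIS (50%) and 4 rose and 10 fell with bleomycin (58.3%). COL3A1, which encodes collagen III, fell most in OIS (-4.79, adjusted p = 7.43e-09, SE 0.28), and PCOLCE, an enhancer of procollagen cleavage, fell most with bleomycin (-3.66, adjusted p = 1.7e-08, SE 0.30). In contrast PLOD2, a collagen lysyl hydroxylase, rose in OIS (1.93, adjusted p = 0.0432, SE 0.70) and with bleomycin (1.00, adjusted p = 0.028, SE 0.34). Of 8 other membrane-bound factors and ER stress sensors, 2 rose and 1 fell in each model (37.5%). The sensor kinase ERN1 was higher in both (1.37, adjusted p = 0.00919, SE 0.37, and 1.08, adjusted p = 0.00208, SE 0.25), and MYRF, another membrane-bound factor, was lower in both (-1.56, adjusted p = 0.0101, SE 0.43, and -2.15, adjusted p = 9.6e-05, SE 0.36). Of 9 soluble CREB and ATF genes, 0 were called in OIS and 1, ATF3, rose with bleomycin (1.08, adjusted p = 0.00026, SE 0.20). Of 20 unfolded protein response effectors, 3 rose and 1 fell in OIS (20%), and 4 rose and 1 fell with bleomycin (25%). TRIB3, a stress-induced pseudokinase, rose most in OIS (2.66, adjusted p = 2.85e-06, SE 0.28), DERL3, which acts in ER-associated degradation, rose most with bleomycin (3.82, adjusted p = 0.000957, SE 0.81), and the factor ATF4 was lower in both (-0.69, adjusted p = 0.0263, SE 0.22, and -0.63, adjusted p = 0.00483, SE 0.16). Of 15 Golgi stress genes, 0 were called in OIS, and 2 rose and 1 fell with bleomycin.

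After COPB2 knockdown 3 known targets rose in OIS, while no member passed the test. In OIS HERPUD1 rose with shRNA 1 (log2 fold change 1.40, adjusted p = 0.00864, SE 0.21, edgeR) and shRNA 2 (1.61, adjusted p = 0.00268, SE 0.21), from 133 ± 33.3 CPM (SD, n = 3) to 349 ± 44.5 and 406 ± 60.4. ARF4 rose with shRNA 2 (1.03, adjusted p = 0.00824, SE 0.16) and stood at 0.84 (adjusted p = 0.0555, SE 0.16) with shRNA 1. HSPA5, the main ER chaperone, rose with shRNA 2 (1.98, adjusted p = 0.0282, SE 0.36) and stood at 1.72 (adjusted p = 0.0954) with shRNA 1. So 1 of 8 targets rose with shRNA 1 and 3 of 8 with shRNA 2, where 0.14% and 0.224% of all genes were called. None fell, and the medians were 0.40 and 0.42 against -0.07 and -0.08 over all genes. The list was chosen with earlier results of these data known, so these shares do not test the targets as a set. In bleomycin HERPUD1 rose with shRNA 2 (1.10, adjusted p = 0.00241, SE 0.16), and 0 of 8 were called with shRNA 1. In both DMSO states 0 of 8 were called with either shRNA. The difference of the knockdown effect between the senescent and the DMSO state was called for 0 of 8 in both lines, so a difference between states was not shown. HERPUD1, HSPA5 and ARF4 also answer to the other ER stress factors, and which factor acted on them was not tested.

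Stress genes outside the target list rose in the same OIS comparisons. DDIT3, which encodes the stress factor CHOP, rose with shRNA 1 (log2 fold change 2.49, adjusted p = 0.00822, SE 0.37, edgeR) and shRNA 2 (2.59, adjusted p = 0.00471, SE 0.37). ATF3 rose with both (1.65, adjusted p = 0.00461, SE 0.23, and 1.81, adjusted p = 0.00254, SE 0.23), and DERL3 (2.62, adjusted p = 0.0141, SE 0.43) and ATF4 (1.25, adjusted p = 0.0304, SE 0.23) rose with shRNA 2. Of the 20 unfolded protein response effectors, 1 rose with shRNA 1 and 3 with shRNA 2, with medians of 0.56 and 0.66 against -0.07 and -0.08 over all genes. In bleomycin 2 of the 20 rose with shRNA 2 (10%, against 0.0744% of all genes), with a median of 0.43 against 0.01, and 0 with shRNA 1. Of 15 Golgi stress genes, 1 rose in OIS with shRNA 2 (6.67%, against 0.224% of all genes) and 0 with shRNA 1. In bleomycin 0 of the 15 were called with either shRNA. These lists, too, were chosen with earlier results of these data known.

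The calls after knockdown depended on the fit and on single libraries, and settings both added and removed calls. With a replicate block ARF4 (0.83, adjusted p = 0.00281, edgeR) and HSPA5 (1.71, adjusted p = 0.000788) were called in OIS with shRNA 1. Both were also called there in the fit of all 42 libraries (0.84, adjusted p = 0.00749, and 1.71, adjusted p = 0.000416). Other settings lost calls. When only the groups compared were fitted, 0 list genes were called in OIS with either shRNA, and HERPUD1 stood at 1.41 (adjusted p = 0.659, edgeR) and 1.67 (adjusted p = 0.257) for shRNA 1 and 2 and at 1.10 (adjusted p = 0.286) for shRNA 2 in bleomycin. In the fit of each line, HERPUD1 with shRNA 1 was no longer called without control replicate 2 (1.24, adjusted p = 0.0896), control replicate 3 (1.38, adjusted p = 0.0628) or shRNA 1 replicate 3 (1.25, adjusted p = 0.0617), while with shRNA 2 it was called without each library in turn. ARF4 with shRNA 2 was lost without control replicate 2 (1.02, adjusted p = 0.0594) and with the GC correction (0.92, adjusted p = 0.265). HSPA5 with shRNA 2 was lost without control replicate 1 (2.09, adjusted p = 0.0597), control replicate 2 (1.70, adjusted p = 0.128), shRNA 2 replicate 2 (2.09, adjusted p = 0.0508) or shRNA 2 replicate 3 (1.65, adjusted p = 0.136). The collagen chains were not called in OIS after knockdown, with COL1A1 at log2 fold changes of -0.10 (SE 0.23) and -0.23 (SE 0.23) and COL1A2 at 0.39 (SE 0.22) and 0.42 (SE 0.22) for shRNA 1 and 2.

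CREB3L3, the liver member of the family that was not followed, was above 0 in 7 of 42 libraries with at most 4 counts, 6 of them among the 12 bleomycin libraries. Over the 12 group means of log2 CPM the members did not all run together. Pearson's r was 0.80 for CREB3L1 and CREB3L4, -0.65 for CREB3 and CREB3L4, -0.41 for CREB3 and CREB3L1, -0.34 for CREB3 and CREB3L2, 0.28 for CREB3L1 and CREB3L2 and -0.07 for CREB3L2 and CREB3L4, all from the same libraries. Among 15299 genes, those with the most similar group means were PES1 (r = 0.982), LMF2 (0.976) and TMX2 (0.975) for CREB3, and RCCD1 (0.992), CD99L2 (0.990) and HSPB6 (0.985) for CREB3L1. For CREB3L2 they were RPL23AP53 (0.990), MBTPS2 (0.978) and DSC3 (0.973), and for CREB3L4 EPHB4 (0.994), LHPP (0.994) and NUMBL (0.992). With Spearman's rho in place of Pearson's r, 1, 1, 0 and 0 of each set of 3 genes were kept, so these sets depend on the measure. PES1 is a ribosome biogenesis factor, LMF2 and TMX2 are ER membrane proteins, and EPHB4 is an ephrin receptor.

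Within groups CREB3, CREB3L1 and, less evenly, CREB3L4 were higher in libraries with a low GC index, and CREB3L2 was not. Of 11 libraries whose index was at least 0.5 below the group mean, CREB3 was above its group mean in 11, CREB3L1 in 11, CREB3L4 in 10 and CREB3L2 in 3. Of 12 libraries at least 0.5 above, CREB3 was below its group mean in 11, CREB3L1 in 12, CREB3L4 in 8 and CREB3L2 in 5. The longest transcripts have a GC content of 54.5% for CREB3, 61.1% for CREB3L1, 48.2% for CREB3L2 and 53.4% for CREB3L4. OIS replicate 1 with the control shRNA had the lowest index of all, -1.82, with the most CREB3 and the least CREB3L2 of its group. After the GC and length correction, CREB3 in OIS with the control shRNA moved from 0.20 to -0.14 on the log2 scale (adjusted p = 0.491, SE 0.16, edgeR). CREB3L4 stayed at -1.44 (adjusted p = 1.43e-05, SE 0.20), and CREB3 with bleomycin stayed called at 0.57 (adjusted p = 0.000647, SE 0.12). With bleomycin and shRNA 2 the corrected rise of CREB3 was 0.79 (adjusted p = 1.58e-05, SE 0.12) against 1.21 without the correction.

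**Figure D5:**
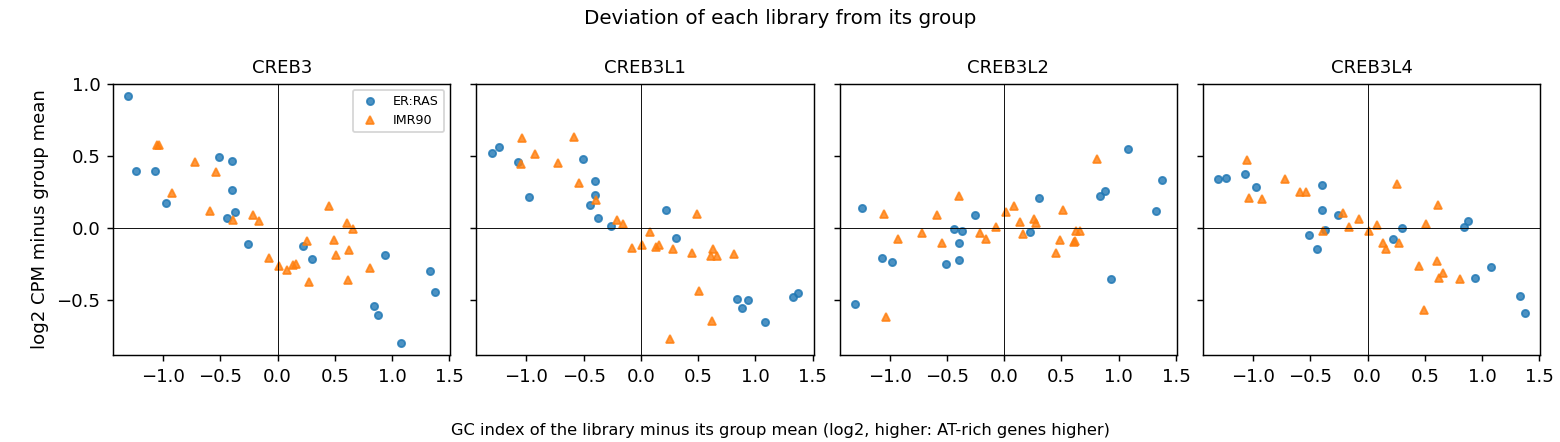
Each point is 1 of 42 libraries, with the GC index minus its group mean (log2) on the horizontal axis and log2 CPM of the member minus its group mean on the vertical axis, for ER:RAS (circles) and IMR90 (triangles). CREB3, CREB3L1 and CREB3L4 fall from left to right and CREB3L2 does not.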

How the data were processed

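The authors deposited raw read counts per gene symbol, with no normalization, for all 42 libraries, and every column matched a label (columns without a sample: 0). Per the study's methods, directional single-end reads were aligned with Tophat to hg19 and counted with HTSeq, whereas the submitters' processing notes name DRAGEN, STAR 2.7.8a, DESeq2 1.32.0 and hg38. The pipeline used for the deposited counts could therefore not be settled, and annotation came from GENCODE on GRCh37 and RefSeq GRCh38.p14. Groups came from the labels. The labels do not say whether replicates were separate cultures, whereas the study's legend for the knockdown comparisons counts independent experiments.

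Low-count genes were filtered out (filterByExpr), TMM factors scaled the libraries, and contrasts were tested two-sided with the robust quasi-likelihood test of edgeR 4.0.16 in R 4.3.3. The 18 ER:RAS libraries (14297 genes) and the 24 IMR90 libraries (14783 genes) were fitted separately, and all 42 (15299 genes) for comparisons across lines. A gene was called at a Benjamini-Hochberg adjusted p under 0.05 over all genes of the fit, in 24 contrasts. Comparisons that use the same control groups are not independent. CPM are counts over the TMM-scaled total times 1000000, and log2 values of libraries had a prior count of 2. Intervals are 95% intervals and, like the floor of 3 counts, use reads without molecular identifiers. Promoter motifs were searched in the 250 bases before each RefSeq start. The scripts were tested on simulated data.

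All 4 members are named in each comparison. From the lists were named the called genes, at most 3 in each direction per list and comparison by size of change, of which some are described, and a set of regulators and targets called or not. The members and lists were chosen with earlier results of these data known. Alternatives were DESeq2 size factors, no filter, DESeq2 1.42.0, fits of the groups compared or of all libraries, a replicate block, leaving out each library, the longest transcript and Spearman's rho. A correction for GC content and length was added after seeing the data.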

Additional observations from a re-analysis of the deposited data

Results flagged for a closer look

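Among the 24 sets of 4 libraries examined for the members in IMR90 cells, 3 held a library far from the other libraries of its group, where chance gives about 1 in 20. CREB3L1 was at 250.6 CPM in replicate 1 of IMR90 DMSO with the control shRNA, and the other libraries were at 161 to 170 CPM. CREB3L1 was at 239.0 CPM in replicate 1 of IMR90 DMSO with shRNA 1, against 153 to 159.8 in the others. CREB3L4 was at 13.1 CPM in replicate 1 of IMR90 DMSO with the control shRNA, against 8.02 to 8.76 in the others. All 3 values are from replicate 1, whose GC index was -0.77 with the control shRNA and -0.44 with shRNA 1, the lowest of each group. The part of the GC index in these values was not tested.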

How the results depend on the processing

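Values are log2 fold changes with edgeR unless named otherwise. The call of CREB3L4 in the 6 senescence comparisons was kept under every alternative run. In OIS with the control shRNA the members called went from 2 to 1 under DESeq2 size factors, DESeq2, no filter and only the groups compared, since CREB3L1 no longer passed at -0.88, -0.88, -0.95 and -0.99 (DESeq2 size factors moved the median of all genes by 0.12 there), and with bleomycin from 2 to 1 in the fit of all 42 libraries, with CREB3 at 0.72. CREB3L2 with bleomycin and shRNA 1 passed at 0.41 under DESeq2 size factors, DESeq2 and only the groups compared, and at 0.32 with the GC correction added after seeing the data. With that correction 2 members passed in the difference of the triggers, CREB3 at -0.64 and CREB3L1 at -1.01. The cause was not tested. Signs turned for values near 0 that were not called. With the GC correction these were CREB3 at -0.14 in OIS with the control shRNA, CREB3L2 at 0.02 in OIS with shRNA 2, CREB3 at 0.08 for shRNA 1 in ER:RAS DMSO, CREB3L4 at 0.05 for shRNA 2 and 0.02 for the mean of shRNAs in OIS, CREB3L1 at 0.08 with bleomycin and shRNA 1, CREB3L1 at 0.07 for shRNA 2 and CREB3 at 0.03 for the mean in IMR90 DMSO, CREB3L4 at -0.04 for shRNA 2 and CREB3L2 at 0.01 for the mean in bleomycin, CREB3L2 at 0.04 between triggers and CREB3L4 at -0.22 between lines. Under other alternatives they were CREB3 at 0.01 for shRNA 1 in ER:RAS DMSO, CREB3L1 at 0.01 with bleomycin and shRNA 2, CREB3L4 at 0.00 for shRNA 2 in OIS, CREB3L1 at 0.00 for shRNA 2 in IMR90 DMSO, and CREB3L4 at 0.01 or 0.00 for the effect of shRNA 2 in bleomycin minus DMSO. With the longest transcript CREB3L1, CREB3L2 and CREB3L4 stood at 69.9, 12.1 and 5.49 CPM per kb in IMR90 DMSO with the control shRNA, in place of 46.5, 10.2 and 3.31.

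The column headers carry a running number that follows the replicate number across both lines, and the labels tie the replicate number to nothing further. The GC index was highest in replicate 3 in every group. Libraries with the same replicate number tended to deviate together. The correlation of their deviations had a median of 0.55 over 45 pairs in ER:RAS (-0.55 to 0.90), against -0.41 for pairs with different numbers. In IMR90 the median was 0.35 over 60 pairs (-0.47 to 0.79), against -0.08. Of the libraries, 13 of 18 in ER:RAS and 16 of 24 in IMR90 correlated best with their own number. The main fits held no term for the replicate number. With a replicate block the members called were unchanged in the senescence and knockdown comparisons, CREB3L2 in OIS with the control shRNA was at -0.04, and 1 member passed between triggers, CREB3L1 at -0.98 (adjusted p = 0.00762). Between the cell lines no block was fitted, because the replicate numbers were treated as separate in each line. A block shared by both lines was not run.

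Leaving out each library in turn gave, in OIS against DMSO, 1 to 2 members called with the control shRNA and with shRNA 1, CREB3 at -0.32 to 0.56, CREB3L1 at -1.22 to -0.65 and CREB3L2 at -0.27 to 0.31 with the control shRNA, CREB3L1 at -1.45 to -0.99 with shRNA 1 and CREB3L2 at -0.36 to 0.03 with shRNA 2. With bleomycin it gave 1 to 2 members called, CREB3 at 0.61 to 0.93 and CREB3L1 at -0.11 to 0.27 with the control shRNA, CREB3L1 at -0.36 to 0.11 with shRNA 1, and CREB3L1 at -0.26 to 0.15 and CREB3L2 at -0.02 to 0.32 with shRNA 2. For shRNA 1 in ER:RAS DMSO it gave CREB3 at -0.23 to 0.19, CREB3L1 at -0.23 to 0.33 and CREB3L4 at -0.11 to 0.29, for shRNA 2 CREB3L1 at -0.02 to 0.48 and CREB3L2 at -0.13 to 0.20, and for the mean CREB3L1 at -0.09 to 0.41. In OIS it gave for shRNA 1 CREB3 at -0.02 to 0.87, CREB3L1 at -0.52 to 0.01, CREB3L2 at -0.33 to 0.25 and CREB3L4 at -0.23 to 0.07, for shRNA 2 CREB3L1 at -0.48 to 0.06, CREB3L2 at -0.41 to 0.17 and CREB3L4 at -0.16 to 0.13, and for the mean CREB3L1 at -0.50 to 0.04, CREB3L2 at -0.37 to 0.21 and CREB3L4 at -0.19 to 0.10. In IMR90 DMSO it gave for shRNA 1 CREB3 at -0.21 to 0.15, CREB3L1 at -0.22 to 0.09, CREB3L2 at -0.01 to 0.04 and CREB3L4 at -0.05 to 0.21, for shRNA 2 CREB3 at -0.10 to 0.25, CREB3L1 at -0.11 to 0.15 and CREB3L4 at -0.00 to 0.24, and for the mean CREB3 at -0.11 to 0.20, CREB3L1 at -0.10 to 0.12, CREB3L2 at -0.05 to 0.00 and CREB3L4 at -0.00 to 0.23. In bleomycin it gave CREB3 at -0.01 to 0.17 for shRNA 1, CREB3L1 at -0.38 to 0.09 and CREB3L4 at -0.05 to 0.18 for shRNA 2, and CREB3L1 at -0.34 to 0.03 and CREB3L2 at -0.12 to 0.03 for the mean. For the effect in OIS minus DMSO it gave CREB3 at -0.01 to 0.87 and CREB3L2 at -0.58 to 0.01 with shRNA 1, and CREB3 at -0.15 to 0.73 and CREB3L2 at -0.50 to 0.09 with shRNA 2. For the effect in bleomycin minus DMSO it gave CREB3 at -0.09 to 0.27 and CREB3L1 at -0.48 to 0.02 with shRNA 1, and CREB3L1 at -0.38 to 0.08, CREB3L2 at -0.29 to 0.02 and CREB3L4 at -0.18 to 0.11 with shRNA 2. Between triggers CREB3L2 was at -0.51 to 0.04, and between lines CREB3L1 was at -0.03 to 0.52 and CREB3L4 at -0.15 to 0.23.

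Over all genes the calls in OIS with the control shRNA numbered 5098 and 2911 to 7528 under the alternatives, those with bleomycin and shRNA 2 5915 and 3734 to 7680, those between triggers 3101 and 2090 to 5221, and those between lines 53 and 2 to 170. Knockdown calls in OIS numbered 20 and 0 to 54 for shRNA 1, 32 and 0 to 127 for shRNA 2 and 38 and 11 to 184 for the mean, and in bleomycin 11 and 1 to 45 for shRNA 2 and 7 and 1 to 19 for the mean. Called genes of the lists numbered 23 and 13 to 47 in OIS and 29 and 20 to 49 with bleomycin, with the control shRNA, and after knockdown in OIS 3 and 0 to 7 for shRNA 1 and 7 and 0 to 12 for shRNA 2. CREB3L4 had the fewest reads, with as few as 46 in a library.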
